A study of Mus musculus with 2 samples.

Results

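Olfactory receptor promoters were examined in the Zfp322a ChIP-seq of mouse embryonic stem (ES) cells. A promoter was the window from -1000 to +1000 bp of the outermost 5′ end of a protein-coding gene whose symbol is Olfr followed by a number, in the GENCODE annotation of mm9. The rule gave 1087 windows of 22367 for all protein-coding genes, and these lay on 17 chromosomes. Another 26 coding genes with an Olfr symbol of a different form, such as Olfr709-ps1, were kept among the other genes. After 2 other windows that overlapped a receptor window had been left out, 21278 other coding promoters remained for comparison.

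Olfactory receptors are G protein-coupled receptors on the cilia of sensory neurons in the nose, where they detect odorants. Each neuron transcribes a single receptor gene from a very large family, and the family lies in clusters along most chromosomes. The coding sequence of a receptor usually sits in a single exon, preceded by short untranslated exons, and the promoters lack CpG islands. In ES cells the genes are known as silent, but the ChIP-seq files hold no expression values, so silence was not measured here.

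Zfp322a is a zinc finger transcription factor of ES cells. The cells were of the mouse ES line E14, labelled with the background strain C57BL/6 and grown with leukemia inhibitory factor. Their sonicated chromatin was precipitated with an anti-ZNF322 antibody. As the control, chromatin of the same line was precipitated with IgG, labelled as an anti-Rabbit IgG antibody. There was 1 library for each antibody, so no comparison has a replicate check, and every interval and test covers counting error between these libraries only. Reads of 36 bases with a mapping quality of at least 25, which mostly map to a single place, were counted by their 5′ end. The Zfp322a library had 4151151 such reads and the IgG library 3877802. The fold per read is the ratio of Zfp322a to IgG reads divided by the ratio of these totals, given with its exact conditional binomial 95% interval.

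The label CpG-poor was checked on the sequence. The receptor windows had a median GC content of 38.5% (range 27.7 to 53.6%), against 51.6% in other coding promoters. They held a median of 10 CpG dinucleotides, against 64. The ratio of observed to expected CpG had a median of 0.137 in receptor windows and 0.492 in the others. It was below 0.3 in 1052 receptor windows (96.8%), and in 31.9% of the other windows.

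The bases from 250 before to 50 after the 5′ end are shown for a few windows. They are the receptor with the most Zfp322a reads (Olfr279, whose model starts at the coding start, so that the stretch is placed by the ATG and may miss the promoter), the windows of highest and lowest GC content (Olfr94 and Olfr1098), and 2 receptors that are well studied in the nose, Olfr2 and Olfr16. Atf5, a transcription factor gene that takes part in receptor feedback in neurons, is printed as a CpG-rich contrast, chosen after its values were seen. All are mm9 sequence, 5′ to 3′ on the strand of the gene, with every CpG in capitals.
Olfr279: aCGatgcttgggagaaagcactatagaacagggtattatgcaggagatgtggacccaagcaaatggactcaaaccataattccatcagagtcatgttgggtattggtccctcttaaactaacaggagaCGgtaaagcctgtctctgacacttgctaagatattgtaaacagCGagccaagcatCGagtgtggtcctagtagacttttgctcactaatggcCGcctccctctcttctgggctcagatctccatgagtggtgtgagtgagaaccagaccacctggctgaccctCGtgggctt
Olfr94: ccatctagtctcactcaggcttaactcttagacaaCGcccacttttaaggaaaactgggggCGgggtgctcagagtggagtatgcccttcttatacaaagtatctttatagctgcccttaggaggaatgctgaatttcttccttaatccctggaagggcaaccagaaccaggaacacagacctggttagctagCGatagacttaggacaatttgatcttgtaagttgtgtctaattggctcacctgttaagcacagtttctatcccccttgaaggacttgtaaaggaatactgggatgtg
Olfr1098: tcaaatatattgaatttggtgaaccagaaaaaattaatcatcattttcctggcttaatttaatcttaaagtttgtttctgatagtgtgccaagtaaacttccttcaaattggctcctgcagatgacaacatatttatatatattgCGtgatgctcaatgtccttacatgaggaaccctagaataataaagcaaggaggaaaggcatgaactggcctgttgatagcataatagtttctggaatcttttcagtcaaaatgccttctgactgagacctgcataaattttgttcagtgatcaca
Olfr2: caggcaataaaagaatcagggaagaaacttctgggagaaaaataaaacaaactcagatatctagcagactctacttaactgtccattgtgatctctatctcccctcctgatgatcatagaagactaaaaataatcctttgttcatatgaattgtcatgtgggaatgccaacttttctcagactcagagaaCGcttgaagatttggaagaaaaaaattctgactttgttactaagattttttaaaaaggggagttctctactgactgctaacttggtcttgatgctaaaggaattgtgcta
Olfr16: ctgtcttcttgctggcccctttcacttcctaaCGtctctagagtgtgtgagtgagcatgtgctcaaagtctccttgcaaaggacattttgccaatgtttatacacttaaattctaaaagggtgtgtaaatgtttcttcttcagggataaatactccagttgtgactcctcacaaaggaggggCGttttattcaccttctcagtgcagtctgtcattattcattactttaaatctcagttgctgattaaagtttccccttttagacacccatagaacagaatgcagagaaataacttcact
Atf5: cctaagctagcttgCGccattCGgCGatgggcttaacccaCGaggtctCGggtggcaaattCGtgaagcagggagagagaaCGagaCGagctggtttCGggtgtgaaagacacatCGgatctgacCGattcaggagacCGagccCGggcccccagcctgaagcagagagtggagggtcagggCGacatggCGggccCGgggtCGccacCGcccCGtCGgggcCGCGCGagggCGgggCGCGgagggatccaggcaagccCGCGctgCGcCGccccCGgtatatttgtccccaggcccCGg
The receptor sequences lie at chr15:98327655-98327954 (plus strand, 6 CpG), chr17:37334907-37335206 (minus strand, 3 CpG), chr2:86764606-86764905 (minus strand, 1 CpG), chr7:114146070-114146369 (minus strand, 1 CpG) and chr1:174886649-174886948 (plus strand, 2 CpG). The Atf5 sequence lies at chr7:52071979-52072278 (minus strand) and holds 32 CpG. Over all receptors, these 300 bases held a median of 1 CpG, and 365 windows (33.6%) held none. The median over all coding promoters was 11, and 4.88% held none.

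Short motifs were counted in the same 300 bases, on both strands. TAATTA, the core read by homeodomain factors such as the receptor activator Lhx2, was present in 19.0% of receptor promoters, 4.83% of all coding promoters and 10.1% of other coding promoters with a GC content under 45%. The motif reads the same on both strands. ATGGCG, the core of the YY1 site, was present in 1.01% of receptor promoters, 10.5% of all coding promoters and 5.13% of the low-GC promoters. CCCNNGGG, which also reads the same on both strands, was present in 2.94%, 15.1% and 5.74%. In receptor models that start upstream of the coding start its share was 5.52%. GCATGCGC, from the palindrome bound by Nrf1, was found in 0 of the 1087 receptor promoters, in 3.30% of all coding promoters and in 0.690% of the low-GC promoters. The low-GC promoters were chosen on the 2000-bp window. In the 300 bases searched their median GC content was 43.0%, against 35.3% in the receptors and 36.7% in the models that start upstream, so the shares are not compared at equal GC content. The motifs also differ in GC content, and a match describes the sequence only.

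The annotation limits what a receptor window can show. In 616 of the 1087 models (56.7%) the gene model started at the coding start, and 597 of these began with ATG. Their window is therefore centred on the coding start, and an untranslated first exon more than 1000 bp upstream would lie outside it. In the other 471 models the annotated 5′ end lay upstream of the coding start, with a median distance of 64 bp. It was over 1000 bp in 120 of them. A single exon was annotated for 896 receptors (82.4%). This is more than the 616 models that start at the coding start. Some of the other 471 therefore also lack a separate leader exon, and the same limit can hold for them.

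Few reads fell on any receptor promoter. The median was 2 reads in each library, and 234 windows had 0 Zfp322a reads, 192 had 0 IgG reads and 57 had 0 in both. At 0 reads a level of up to 3 reads is allowed by counting error. More Zfp322a than IgG reads were counted at 406 receptors, fewer at 446, and equal numbers at 235. At this depth most single windows cannot separate the libraries. Other coding promoters had medians of 12 Zfp322a and 8 IgG reads. Those with a GC content under 45% had medians of 2 and 2, as the receptors did. Promoters of other chemosensory receptors had medians of 0 and 1.

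**Figure D1:**
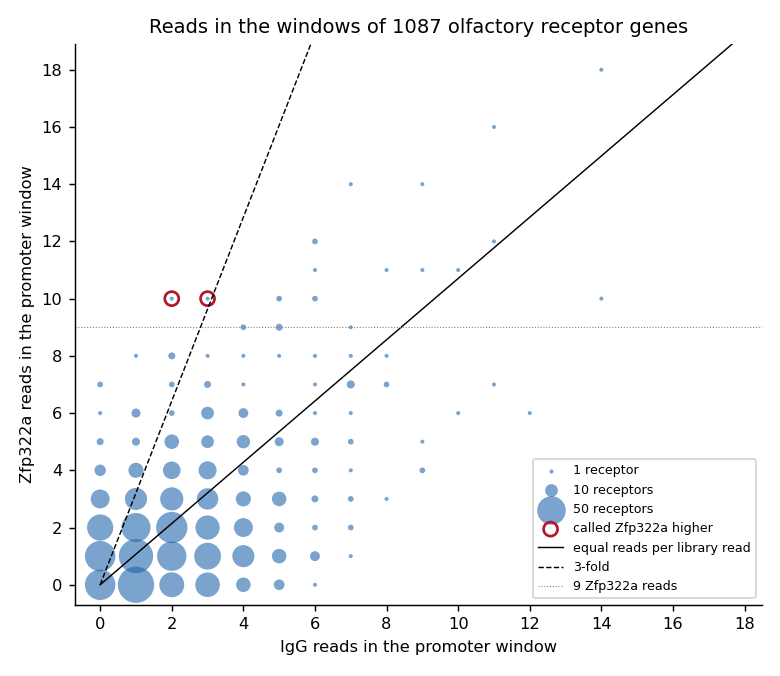
Zfp322a reads (y axis) against IgG reads (x axis) in the promoter windows of 1087 olfactory receptor genes, 1 library per antibody. The area of a circle gives the number of receptors, the solid line marks equal reads after scaling to the library totals, the dashed line 3-fold, and the dotted line 9 Zfp322a reads; most receptors lie at low counts, and the 2 ringed receptors, Olfr30 and Olfr70, have 10 Zfp322a reads and at least 3-fold.

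Pooled over the family, 2363 Zfp322a and 2421 IgG reads lay in 2.17 Mb of receptor windows. This is a fold per read of 0.912 (interval 0.861 to 0.965). Other coding promoters had a fold per read of 1.40 (1.39 to 1.41). The quotient of the folds was 0.651 (0.615 to 0.689; Fisher's exact test on reads, two-sided, p = 7.14e-49). The receptor windows held 1.09 Zfp322a and 1.11 IgG reads per kb, against 6.36 and 4.24 in the other promoters. So the receptors were low in both libraries against all other coding promoters, at 0.171 times their Zfp322a density and 0.263 times their IgG density. This was not at equal GC content. Within classes of GC content the ratios were 0.851 and 1.15 under 35% GC, and 0.804 and 0.868 at 35 to 40%. They were 0.764 and 0.826 at 40 to 45%, and 0.331 and 0.421 at 45% or more, where the other promoters reach a higher GC content. The receptors were also lower in narrower bins. From 46 to 50% GC they had means of 4.71 Zfp322a and 4.29 IgG reads a window, against 10.6 and 7.01. From 50 to 54% the means were 8.05 and 5.80, against 15.5 and 9.82.

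Receptor windows also held more repeated sequence, which the quality limit leaves out. Of the 36-base starts in a receptor window a median of 91.6% were unique in mm9, against 99.0% in other promoters. Of the Zfp322a reads of any mapping quality in receptor windows 30.8% fell below the quality limit, and of the IgG reads 29.4%. The shares in other coding promoters were 12.2% and 15.4%. In those with a GC content under 45% they were higher than in the receptors, at 68.0% and 68.6%. There a mean of 76.1% of the starts were unique (median 93.5%), against a mean of 86.6% in receptor windows. Per 1000 unique starts, receptor windows had 0.628 Zfp322a and 0.644 IgG reads, and other promoters 3.66 and 2.40. The other promoters with a GC content under 45% had 0.936 and 0.837.

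The receptor with the most reads in the Zfp322a library was Olfr279 on chromosome 15 (ENSMUSG00000054036.4), with 18 Zfp322a and 14 IgG reads in its window from 98326905 to 98328904. It was also, with Olfr1342, the highest in IgG. Its fold per read was 1.20 (0.564 to 2.61). Olfr95 followed with 16 and 11 reads, and its neighbour Olfr94, the receptor of highest GC content (53.6%, 85 CpG), had 14 and 9. Olfr1349 had 14 Zfp322a and 7 IgG reads, and Olfr1344 of the same cluster 12 and 6. Olfr1358 had 12 and 11, Olfr225 12 and 6, Olfr15 11 and 10, Olfr222 11 and 9, and Olfr524 11 and 6. Olfr543, with 11 and 8 reads, tied with the last 3 of these 10 and was left out by the order of symbols. All 11 had more Zfp322a than IgG reads, which is favoured by ranking on the Zfp322a count. In each of the 11 the interval of the fold per read held 1.

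Ranked by IgG reads, Olfr1342 stood beside Olfr279 with 14 IgG reads, and it had 10 Zfp322a reads. Olfr283 had 12 IgG and 6 Zfp322a reads, and Olfr323 had 11 and 7. Olfr1358 and Olfr95 also had 11 IgG reads. Olfr279, Olfr1358 and, by the tie, Olfr95 stood in both rankings. The windows at the top of either ranking, ties included, were GC-rich for this family, from 47.1% (Olfr15) to 53.6% (Olfr94). Of the 24 receptors with at least 9 Zfp322a reads, 21 had a GC content of at least 45%, which holds for 12.0% of all receptors. They came from 15 clusters.

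At the other end, Olfr1098 had the lowest GC content (27.7%), with 1 Zfp322a and 3 IgG reads. Olfr1097, next to it on chromosome 2, had 1 and 4 reads at 28.7% GC, and Olfr1129 had 0 and 4 at 29.2%. Olfr1411, next after Olfr524 in GC content (53.1%), had 8 Zfp322a reads and 1 IgG read. Its fold per read of 7.47 has an interval from 1.002 to 332, set by the single IgG read. It was among 4 receptors (0.368%) whose own interval lay above 1, against 11.8% of all coding promoters. The others, named after their values were seen, were Olfr1276 and Olfr1494 with 7 Zfp322a reads and 0 IgG reads each, and Olfr221 with 6 and 0. Olfr586, with 0 Zfp322a and 6 IgG reads, was the 1 receptor (0.0920%) whose interval lay below 1, against 0.595%. An interval off 1 needs several reads, and these shares are not at equal depth. Receptor windows had a median of 2 reads in each library, against 12 Zfp322a and 8 IgG reads in other coding promoters.

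Receptors known from work on the nose had few reads. Olfr2, the octanal receptor I7, had 3 Zfp322a reads and 1 IgG read. Olfr16, or MOR23, had 2 and 3 reads, and Olfr17, or P2, had 3 and 2. Olfr73, the eugenol receptor, had 2 and 3, Olfr151, or M71, had 1 and 1, and Olfr1507, or MOR28, had 2 and 0. Olfr545, a class I receptor, was the highest of this list with 7 and 3. Olfr160 was listed too, but no coding gene of that symbol was found in the annotation used. Every interval of a fold in this list held 1, and at these counts a difference of several fold would not be detectable.

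A second list held receptors with known roles outside the nose. Olfr78, a short-chain fatty acid receptor of the kidney and carotid body, had 2 reads in each library. Olfr544, an azelaic acid receptor of adipocytes and liver, had 9 Zfp322a and 5 IgG reads, Olfr558 had 5 and 2, and Olfr1393 of the kidney had 3 and 6. Olfr16, which is also found in sperm and muscle, is given above. The libraries went in no common direction over these 5 receptors.

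A promoter was called Zfp322a higher when its window had at least 9 Zfp322a reads and a fold per read of at least 3. Over all coding promoters, 1170 of 22367 (5.23%) met this rule. Among the receptors it was met by 2 of 1087 (0.184%, Clopper-Pearson interval 0.0223 to 0.663%). These were Olfr30 on chromosome 11, with 10 Zfp322a and 3 IgG reads, and Olfr70 on chromosome 4, with 10 and 2. Their folds per read were 3.11 (0.802 to 17.6) and 4.67 (0.995 to 43.8), so both intervals held 1. The 5′ end of Olfr30 lies 3057 bp from that of another coding gene, 4930504O13Rik. When reads were extended to fragments of 300 bp, the height at Olfr30 was 3 in both libraries, and at Olfr70 it was 4 in Zfp322a and 1 in IgG.

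The call needs 9 reads, which few receptors have. Of the 24 receptors with at least 9 Zfp322a reads 8.33% were called, against 9.02% of the 12948 other coding promoters with as many reads and 16.1% of the 242 among them with a GC content under 45%. The first share rests on 2 receptors, and all 3 are of windows chosen by their Zfp322a count. With the libraries exchanged, 0 receptors were called IgG higher, against a background of 0.55% (123 of 22367); a count of 0 allows up to 0.276% of the receptors, taken as 3 counts of the total. Fragment heights ran to 7 in each library over the receptor windows, with a median of 1, and none reached 9. The authors deposited, for both libraries, the reads inside numbered regions of their peak detection. The Zfp322a reads form 754 distinct intervals, which are not the full list of sites in the study, so an overlap of 0 covers this part only. They overlapped 0 of the 1087 receptor windows and 689 of the 21278 other windows (3.24%). The IgG reads of the same numbered regions form 740 intervals and overlapped 0 receptor windows and 674 other windows (3.17%), so the overlap does not separate the libraries. Among other coding promoters with a GC content under 45%, 6 of 4056 (0.148%) overlapped a Zfp322a interval and 5 an IgG interval, and 39 (0.962%) were called Zfp322a higher.

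The reads along the receptor genes did not peak at the 5′ end. In bins of 100 bp, Zfp322a reads were highest from +400 to +500, at 179 reads per 1000 genes, and IgG reads from +300 to +400, at 155 reads per 1000 genes. In other coding genes both libraries were highest from 0 to +100, at 1172 Zfp322a and 676 IgG reads per 1000 genes. The maximum of GC content lay at the same place as that of the Zfp322a reads. In receptor genes GC content was highest from +400 to +500 (45.5%), within the coding exon of most models, and in other genes from 0 to +100 (60.2%). Its course along the receptor genes differed from that of the reads, with a further rise to 45.3% from +700 to +800, where the reads had fallen to 123 Zfp322a and 106 IgG reads per 1000 genes.

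**Figure D2:**
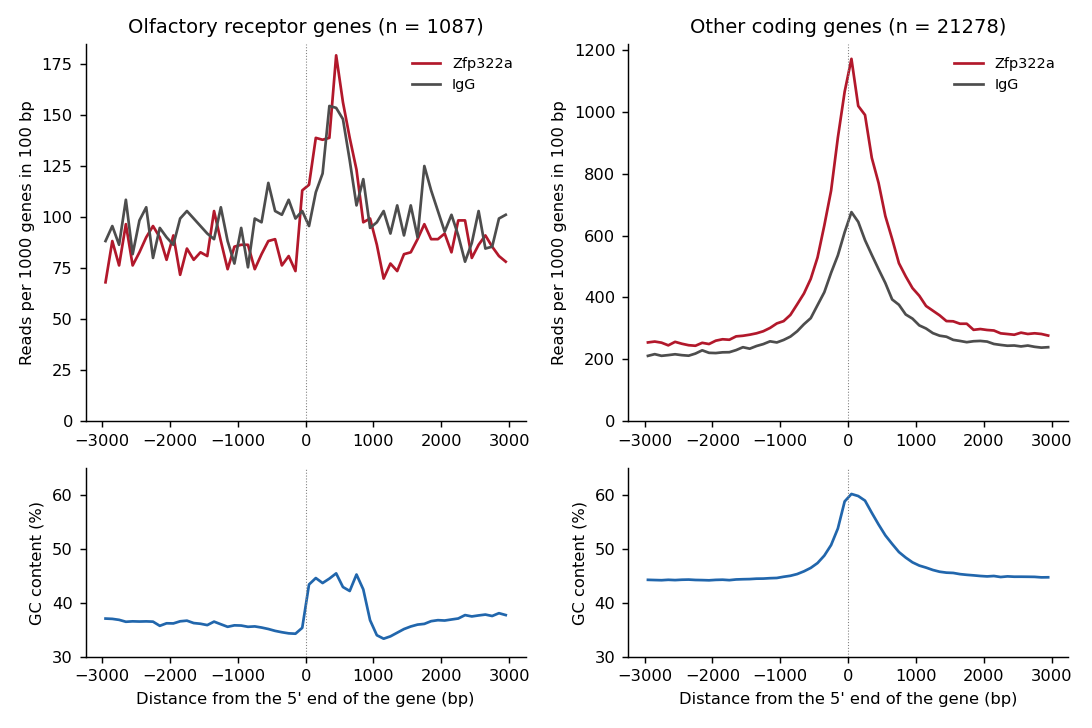
Reads per 1000 genes in bins of 100 bp (upper panels, with separate y axes for the 2 gene classes) and mean GC content (lower panels) by distance from the 5′ end, for 1087 olfactory receptor genes and 21278 other coding genes. In receptor genes both libraries rise together after the 5′ end, to 179 Zfp322a and 155 IgG reads, while in other genes they peak at the 5′ end and Zfp322a stands above IgG.

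Within 300 bp of the 5′ end, receptor genes had 110 Zfp322a and 107 IgG reads per 1000 genes and 100 bp. From 2 to 3 kb away they had 85.9 and 92.7. The near level was thus 1.28 times the far level in Zfp322a and 1.15 times in IgG. The same ratios were 3.68 and 2.56 in other coding genes, and 1.68 and 1.39 in other coding genes whose window had a GC content under 45%.

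The window was therefore split at the 5′ end. The part before it had 923 Zfp322a and 1082 IgG reads, which is a fold per read of 0.797 (0.729 to 0.871), at a mean GC content of 35.1%. The part after it had 1440 and 1339 reads, a fold of 1.005 (0.932 to 1.08), at 43.1% GC. The quotient was 0.793 (0.707 to 0.890; Fisher's exact test, p = 8.58e-05). In models that start at the coding start the folds were 0.730 before and 1.06 after (p = 4.54e-06, Fisher's exact test). In models that start upstream they were 0.886 and 0.950 (p = 0.436, Fisher's exact test), with a quotient of 0.932 (0.787 to 1.10). Whether the quotient differed between these kinds of model was not tested.

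The fold per read of a receptor window went with its GC content. The 190 receptors with a GC content under 35% had 221 Zfp322a and 361 IgG reads, a fold of 0.572 (0.482 to 0.678). Between 35 and 40% the fold was 0.848 (0.768 to 0.935), between 40 and 45% it was 1.01 (0.909 to 1.13), and in the 130 receptors of 45% or more it was 1.12 (0.997 to 1.26). The highest class exceeded the lowest 1.96 times (1.60 to 2.40; Fisher's exact test, p = 6.06e-11). Both libraries had more reads at high GC content. From the lowest to the highest class the density went from 0.582 to 2.51 reads per kb in Zfp322a and from 0.950 to 2.10 in IgG. Across receptors, the correlation of reads with GC content was r = 0.530 in Zfp322a and 0.353 in IgG (n = 1087 windows, which share the libraries and, within clusters, sequence).

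Other coding promoters of the same GC content were set beside them. Below 35% GC the other promoters had a fold of 0.773, so the receptors stood at 0.740 times that value (0.597 to 0.917; Fisher's exact test, p = 0.00655). The quotients were 0.926 (0.827 to 1.04) at 35 to 40% and 0.924 (0.828 to 1.03) at 40 to 45%, neither beyond counting error. At 45% or more the quotient was 0.786 (0.701 to 0.882; p = 4.12e-05, Fisher's exact test). There the other promoters reach a far higher GC content than the receptors. In the bin from 46 to 50% GC the receptors had a fold of 1.02 (0.876 to 1.20) and the others 1.42, beyond counting error. From 42 to 46% the folds were 1.04 (0.921 to 1.18) and 1.17, and from 50 to 54% 1.30 (1.01 to 1.66) and 1.48. In these bins the receptor interval held the other fold.

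With GC content matched in bins of 2 percentage points, the receptors had 0.893 times the fold of other coding promoters (0.844 to 0.946, 1080 receptors). The interval no longer lay below 1 when only windows with at least 90% unique starts were used (595 receptors and 17577 others; 0.953, 0.888 to 1.02). It also held 1 in the narrower window from -300 to +300 (0.939, 0.844 to 1.04). Against 2-kb tiles outside all coding windows, matched in the same way, the quotient was 1.005 (0.949 to 1.06). With tiles of the same chromosome it was 0.988 (0.933 to 1.05). The intervals of these matched quotients come from the receptor reads only and leave out the error of the reference. These pooled quotients average over GC classes that went in different directions. From 30 to 34% GC the receptors had a fold of 0.507 (0.397 to 0.643) and the tiles 0.702, so the receptors lay below the tiles beyond counting error. From 34 to 38% the values were 0.749 (0.667 to 0.841) and 0.805, and from 38 to 42% they were 1.001 (0.898 to 1.12) and 0.918. From 50 to 54% they were 1.30 (1.01 to 1.66) and 1.09. In the last 3 of these bins the receptor interval held the tile fold.

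**Figure D3:**
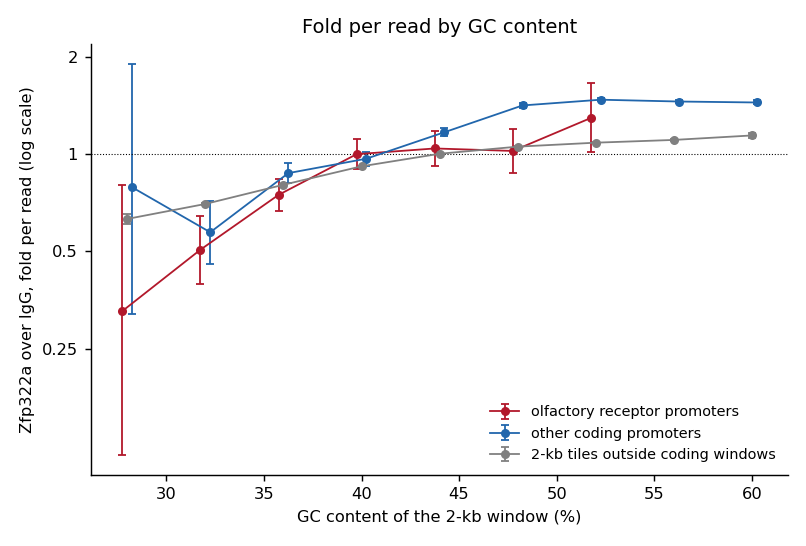
Fold per read (y axis, log scale) by GC content of the 2-kb window in bins of 4 percentage points, for olfactory receptor promoters, other coding promoters and tiles outside coding windows; bars are 95% intervals and points rest on at least 20 reads. The receptors rise from 0.327 in the lowest bin to 1.30 in the highest. Their interval holds the tile fold in each bin but that of 30 to 34%. Other promoters stand above both from 42% on, but the receptor interval holds their fold from 42 to 46% and from 50 to 54%.

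The receptor genes lie in clusters, defined here by gaps of at most 1 Mb between neighbouring 5′ ends. There were 49 clusters, 9 of them with a single receptor. The 22 clusters with at least 10 members held 1000 receptors (92.0%). The lowest fold per read among them was 0.506, the median 1.01 and the highest 1.25. In 20 of the 22 the interval held 1, and in the other 2 it lay below.

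The lower of these was a cluster of 57 receptors on chromosome 10, from Olfr9 to Olfr827. Its promoters had 58 Zfp322a and 107 IgG reads, which is a fold per read of 0.506 (0.361 to 0.703). The rest of the same stretch had a fold of 0.715 (0.646 to 0.792), and tiles of the same GC content on chromosome 10 had 0.719. In 23 of the 57 promoters there were 0 Zfp322a reads. All of chromosome 10 was low in this comparison, with a fold of 0.846 outside coding windows, and only 76.6% of the starts in these promoters were unique on average.

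The largest cluster, 218 receptors on chromosome 2 from Olfr987 to Olfr1272, was the other. It had 325 Zfp322a and 383 IgG reads on its promoters, a fold per read of 0.793 (0.682 to 0.921). The rest of the cluster had 0.775 (0.736 to 0.816) and tiles of equal GC content on chromosome 2 had 0.787, while the chromosome outside coding windows had 1.01. Its mean GC content, 35.5%, was among the lowest of the clusters. A neighbouring cluster of 37 receptors, Olfr1275 to Olfr1318, had a mean GC content of 36.1% and a fold of 1.09 (0.727 to 1.65).

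The class I receptors, which are related to the receptors of fish, surround the beta globin genes on chromosome 7. The cluster that holds them, 124 receptors from Olfr543 to Olfr692, had 320 Zfp322a and 315 IgG reads, a fold of 0.949 (0.810 to 1.11). The rest of that stretch had 0.988. Among the 22 clusters with at least 10 members, the highest fold was 1.25 (0.793 to 2.002), from 47 and 35 reads. It was that of 36 receptors on chromosome 14, Olfr722 to Olfr1507, which include MOR28. Next came 19 receptors on chromosome 7, Olfr522 to Olfr541, with 1.12 (0.796 to 1.58) at the highest mean GC content of these clusters, 46.9%.

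**Figure D4:**
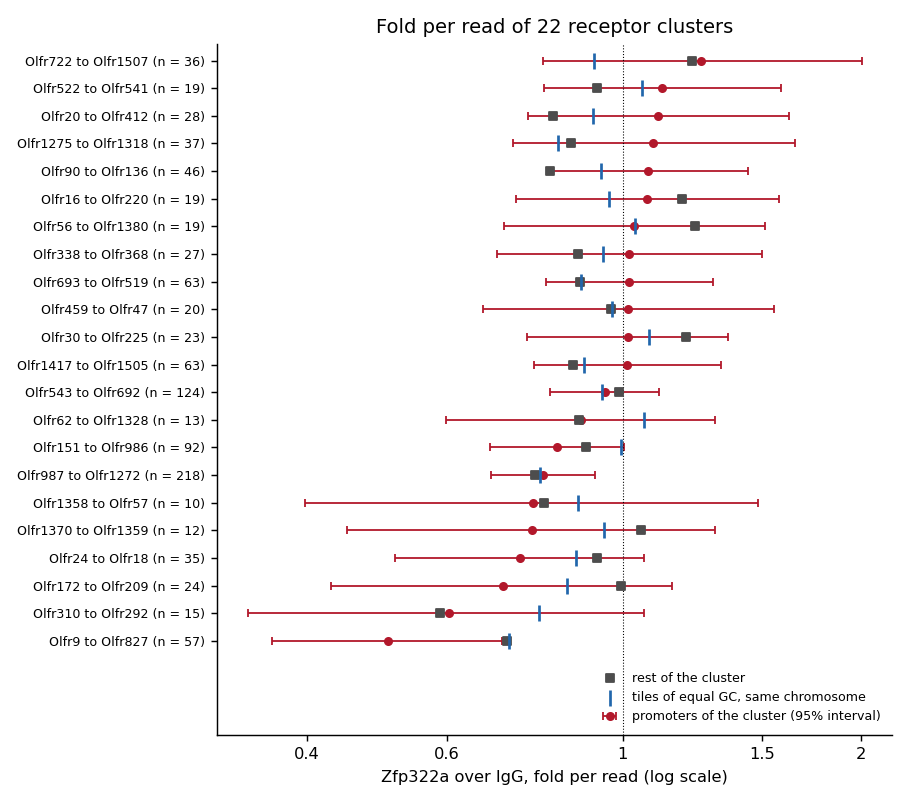
Fold per read (x axis, log scale) of the promoters of the 22 clusters with at least 10 receptors, named by the first and last receptor along the chromosome, with 95% intervals, the fold of the rest of each cluster (squares) and that of tiles of equal GC content on the same chromosome (bars). Most intervals hold 1; those of Olfr9 to Olfr827 and Olfr987 to Olfr1272 lie below it.

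The sequence between the promoters was set beside them. Over all clusters, the stretches outside coding windows had 28242 Zfp322a and 27775 IgG reads, which is a fold per read of 0.950 (0.934 to 0.966), with 0.881 and 0.866 reads per kb. The promoters stood at 0.960 times that fold (0.905 to 1.02; Fisher's exact test, p = 0.175). In the window from -1000 to +100 the quotient was 0.860 (0.790 to 0.936; p = 0.000480, Fisher's exact test). There the rest of the clusters took in the bases from +100 to +1000, with much of the coding exons. It is therefore not the same reference as above. This was not at equal GC content, with means of 35.1% before and 43.1% after the 5′ end of the receptors. In the window from -1000 to +1000, the promoter interval held the fold of the rest in 21 of the 22 large clusters, and the fold of tiles of equal GC content and chromosome in 21 of 22. Most of these intervals rest on few reads and are wide. The narrower interval of the rest held the promoter fold in 7 of the 22, and the promoter fold was the higher of the pair in 12. Across these 22 clusters the fold of the promoters correlated with that of the rest at r = 0.518 (rho 0.299) and with mean GC content at r = 0.407 (rho 0.366). The points share both libraries and, in part, chromosomes.

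The ratio of the libraries also varied by chromosome. Outside coding windows the fold per read ran from 0.746 on chromosome 8 to 1.13 on chromosome 9 among the autosomes. It was 1.29 on chromosome X and 0.507 on chromosome Y, which has no receptor window. The receptor promoters had a fold above that of their chromosome on 8 of the 17 chromosomes and below it on 9. Their interval lay below it on 4, chromosomes 2, 9, 10 and 16, and held it on the other 13. On chromosome 9, with 127 receptors, the receptor promoters had a fold of 0.806 (0.679 to 0.955), and on chromosome 16, with 35, one of 0.669 (0.461 to 0.965), where the chromosome had 1.10. On chromosome 7, with 233 receptors, they had 0.951 (0.849 to 1.07), and the chromosome had 1.02. On chromosome 14, with 39, they had 1.22 (0.804 to 1.87) against 0.990, and on chromosome 6, with 27, they had 1.16 (0.820 to 1.65) against 0.982. Scaled within each chromosome, the receptor promoters had a fold of 0.895 (0.845 to 0.948) in all. Neither this value nor the comparisons with the chromosome folds are at equal GC content. Against tiles of the same chromosome and equal GC content the quotient was 0.988 (0.933 to 1.05), as given above.

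Most other chemosensory receptor families had folds below 1 as well, with Tas1r as the exception. The 203 Vmn1r promoters, of the vomeronasal pheromone receptors, had 192 Zfp322a and 220 IgG reads, which is a fold per read of 0.815 (0.668 to 0.994). The 117 Vmn2r promoters had 77 and 115 reads and a fold of 0.625 (0.462 to 0.842), the 35 Tas2r promoters of bitter taste receptors 0.770 (0.559 to 1.06), and the 15 trace amine receptors Taar 0.724 (0.438 to 1.19). The 4 Fpr-rs promoters had 9 and 12 reads. The 3 Tas1r promoters, of sweet and umami receptors, had 41 and 35 reads, or 6.83 and 5.83 per kb, at a mean GC content of 54.8%, with a fold of 1.09 (0.680 to 1.77). Together the 377 promoters had a fold of 0.774 (0.679 to 0.882), and the olfactory receptors stood at 1.18 times that value (1.02 to 1.36; Fisher's exact test, p = 0.0223). This was not at equal GC content, with means of 37.2% in the 377 promoters and 39.1% in the olfactory receptors. Of the 377, 1 Tas2r promoter (0.265%) was called Zfp322a higher, against 5.23% of all coding promoters. In reads per kb the olfactory receptors stood at 1.93 times the 377 promoters in Zfp322a and 1.64 times in IgG. Only 58.7% of the starts in Vmn1r and 64.9% in Vmn2r promoters were unique on average.

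**Figure D5:**
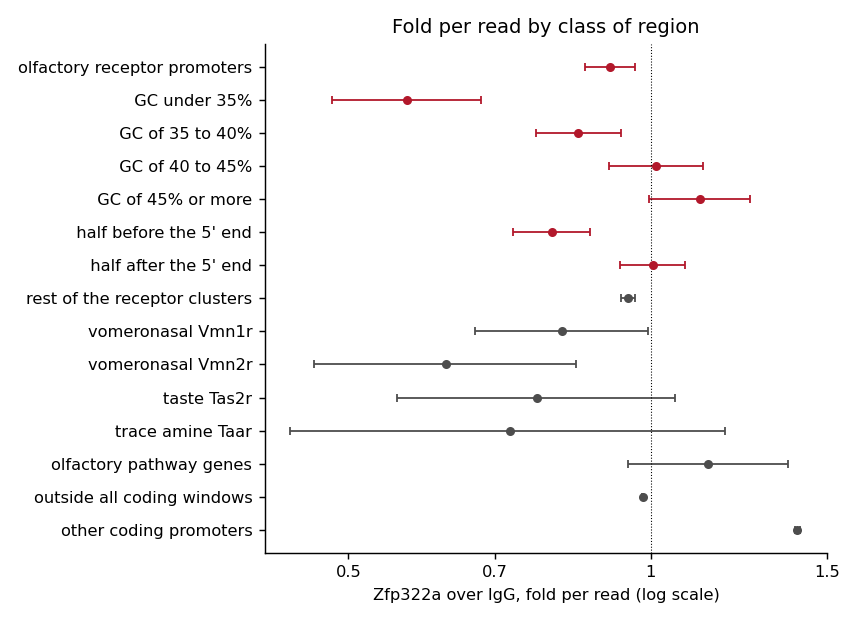
Fold per read (x axis, log scale) with 95% intervals for the olfactory receptor promoters and their subsets by GC content and side of the 5′ end, for the rest of their clusters, other chemosensory receptor families, olfactory pathway genes, sequence outside coding windows and other coding promoters. Receptors rise with GC content from 0.572 to 1.12, and other coding promoters stand at 1.40.

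Other genes of the olfactory pathway had promoters of higher GC content on average. The list held 24 genes for signalling, receptor trafficking and transcription in sensory neurons, with a mean GC content of 55.7%. In 7 of them (29.2%), among them Cnga2, Cnga4, Cngb1 and Rtp1, the ratio of observed to expected CpG was below 0.3. The share was 31.9% in other coding promoters and 96.8% in the receptors. Their windows had 266 Zfp322a and 218 IgG reads, which is a fold per read of 1.14 (0.949 to 1.37), and 0 of the 24 were called in either direction, against 5.23% and 0.55% of all coding promoters. A count of 0 of 24 allows up to 12.5%, again 3 counts of the total, so it does not set the list apart from the background. The most reads were on 3 genes. Atf5 had 29 Zfp322a and 18 IgG reads, and Kdm1a, the histone demethylase LSD1 that takes part in receptor choice, had 27 and 20. Omp, the marker protein of mature olfactory neurons, had 23 and 13.

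Of the signalling genes, Gnal, the olfactory G protein alpha subunit, had 14 and 16 reads. Adcy3, the adenylyl cyclase, had 19 and 13, and Cnga2, a channel subunit, had 1 and 2. The window of Cngb1 had 0 reads in both libraries, and none of its 36-base starts was unique in mm9, so it was not measured. Ric8b, an exchange factor for the olfactory G protein, had 20 Zfp322a and 7 IgG reads, a fold of 2.67 (1.08 to 7.47), and was the 1 gene of the 24 whose interval lay above 1, as did that of 11.8% of all coding promoters. For receptor trafficking, Rtp1 had 3 and 3 reads and Rtp2 had 5 and 1. Of the factors that act on receptor genes, Lhx2 had 5 and 5, Ldb1 17 and 15, Emx2 7 and 9, and of the Ebf genes, Ebf1 had 9 and 8, Ebf2 7 and 6, Ebf3 10 and 15, and Ebf4 13 and 12.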

How the data were processed

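The authors mapped the 2 libraries to mm9 and deposited, for each read, its position and mapping quality, a score from 0 to 37. The submitters' processing notes name CASAVA 1.4, BWA and Partek 6.6 without roles. The authors also deposited the reads inside regions of their peak detection. Of 5187475 Zfp322a reads 80.0% had a mapping quality of at least 25, and of 4843481 IgG reads 80.1%. Library fragments were about 250 bp per the labels. Windows, GC content and unique 36-base starts came from the mm9 genome and GENCODE vM1.

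Reads were counted and folds and intervals derived in numba 0.67.0, scipy 1.17.1, pandas 2.3.3 and numpy 2.4.6 under Python 3.11.15, with steps tested on simulated data. Fisher's exact tests (two-sided) compared the reads of the 2 libraries between region classes, with Woolf intervals for their quotients. Quotients at matched GC content and the scaling within chromosomes have intervals from the receptor reads only. The reference was taken there as exact. An IgG count of 0 was taken as 1 in calls. GC bins needed at least 20 other windows. Named receptors were the 10 with most Zfp322a reads, the 5 with most IgG reads (ties by symbol, tied ones named too), those called, the 3 of highest and of lowest GC content, and 2 lists from the literature. Members, lists and tests were chosen with earlier results of these data known.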

Additional observations from a re-analysis of the deposited data

How the results depend on the processing

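The quotient of receptor to other coding promoters stayed below 1 past the threshold under all alternatives tried, from 0.585 to 0.702. The fold per read of the receptors lost its interval below 1 in the window from -300 to +300 (0.964), with only models that start upstream of the start codon (0.923), and, in a setting chosen after seeing the data, with windows of at least 90% unique starts (0.949). At equal GC content the quotient lost it in the window from -300 to +300 (0.939) and with 90% unique starts (0.953), and it turned to 1.005 with tiles outside coding windows as reference, also chosen after seeing the data. Against the rest of the clusters the quotient passed the threshold at 0.860 in the window from -1000 to +100 and turned to 1.01 from -300 to +300. In both settings the rest took in the bases that the shorter windows left out. The quotient before against after the 5′ end was 0.932 in models that start upstream, past no threshold. Receptors called Zfp322a higher, 2 in the report, numbered 5 (0.46%; 5.3% of all coding promoters) with all mapped reads, 23 (2.12%; 6.47%) with at least 5 reads and 3-fold, 4 (0.368%; 16.3%) with at least 9 reads and 2-fold, and 0 with the window from -1000 to +100 (5.97%) or with fragment heights (5.54%). Those called IgG higher, 0 in the report, numbered 4 (0.368%; 0.648%), 32 (2.94%; 1.66%) and 3 (0.276%; 1.76%) in the first 3 of these settings. Also tried after seeing the data were mapping quality 37, leaving out chromosome 10 and scaling within chromosomes. Each kept the direction and the side of the threshold of the values recomputed under it, which include the receptors called under mapping quality 37 only and the fold per read alone under the scaling. The cause of these changes was not tested. With medians of 2 reads a window, single receptors can rarely be told apart at this depth. No paired analysis was possible because there is 1 library per antibody.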

Other observations

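Reads with a mapping quality of exactly 25 numbered 96389 in the Zfp322a library and 168133 in the IgG library, while reads of the highest quality, 37, numbered 4054762 and 3709669. With the latter alone the receptor promoters had a fold per read of 0.904 (0.853 to 0.958). Of the receptors, 3 had a 5′ end within 5 kb of that of a coding gene outside the 1087 receptors. The median distance to such a gene was 106474 bp. Neighbouring receptors were left out of these distances, and some lie closer.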
